A study of Mus musculus with 12 samples.

Results

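The mitochondrial carriers of the Slc25 family were followed in the ventricles of mice whose right or left outflow tract had been narrowed. The family was taken as every gene whose symbol begins with Slc25a and that had a probe set for it alone. This gave 46 genes among the 19938 genes measured. They were read by 50 probe sets, and where a gene had several the one with the highest mean was used. The tissue came from male C57BL/6 mice with no genetic change named, in 6 groups of 2 arrays each, or 12 arrays in all. Right ventricles (RV) were taken 1, 3 or 6 weeks after a Weck haemoclip was closed around the pulmonary artery (PAC), at ages of 13, 15 and 18 weeks. Their reference was the RV of sham-operated mice 3 weeks after surgery, aged 15 weeks. Left ventricles (LV) came from mice 3 weeks after clipping of the aorta (transaortic constriction, TAC) and from sham mice at 3 weeks, all aged 15 weeks. The only sham RV group was that at 3 weeks, so the comparisons at 1 and 6 weeks also differ in age and in time since surgery. The labels do not say that the arrays of a group held tissue from separate animals, so the p-values measure the spread between arrays. By its title, the study sought genes that mark the right heart when its outflow is chronically blocked.

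Proteins of the Slc25 family sit mostly in the inner mitochondrial membrane and move metabolites between the cytosol and the matrix. In heart muscle they are known for exporting ATP in exchange for ADP, importing phosphate for the ATP synthase, passing fatty acids inward as acylcarnitines, and carrying reducing equivalents through the malate-aspartate shuttle. Other members carry coenzymes, nucleotides, amino acids, iron or glutathione, and for some the substrate is not settled.

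Values were log2 signals deposited by the authors, so a difference of 1 is a doubling. A signal depends on the probes as well as on the transcript, so the order of genes by signal is not an order of abundance. On average 39 of the 46 carriers lay above the median of the probe sets with no listed gene, which was 5.65 to 5.79 on the 12 arrays. The other 7 lay below it. The highest mean signals were those of Slc25a4 at 13.68, Slc25a3 at 12.08, Slc25a11 at 11.92, Slc25a12 at 11.64 and Slc25a20 at 11.53. Slc25a4 is the ADP/ATP carrier of heart and skeletal muscle, Slc25a3 the phosphate carrier, Slc25a11 the oxoglutarate-malate carrier, Slc25a12 an aspartate-glutamate carrier and Slc25a20 the carnitine-acylcarnitine carrier. The lowest were Slc25a54 at 3.83, Slc25a21 at 4.19, Slc25a31 at 4.85, Slc25a53 at 4.87 and Slc25a2 at 4.98. Slc25a31 is the ADP/ATP carrier of male germ cells and Slc25a2 an ornithine carrier. Slc25a48 at 5.22 and Slc25a41 at 5.52 were the others below that median. Over all 12 arrays the signal of Slc25a24 had the widest range, 1.12, between 7.41 and 8.54. The narrowest ranges were those of Slc25a4 and Slc25a37, the iron carrier mitoferrin-1, at 0.18 each.

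**Figure D1:**
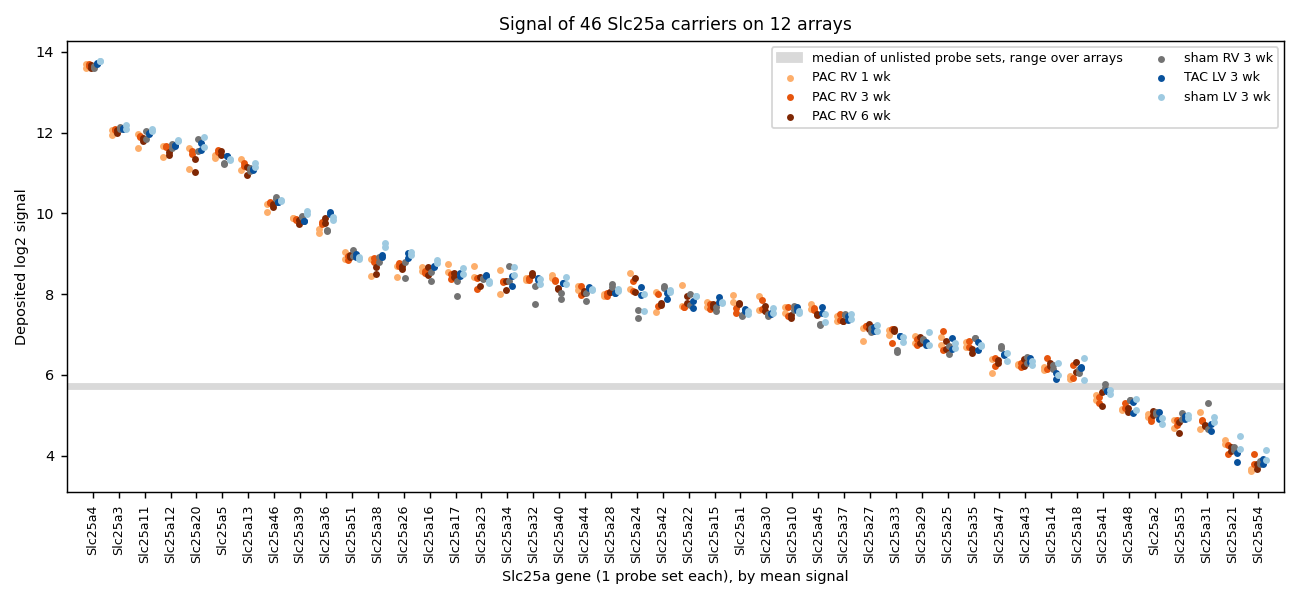
Deposited log2 signal (vertical axis) of each of the 46 carriers (horizontal axis, ordered by mean signal) on each of the 12 arrays, 1 point per array, coloured by group. The grey band is the range of the array medians of probe sets with no listed gene, 5.65 to 5.79. Slc25a4 lies alone near 13.68 and 7 carriers lie below the band.

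After obstruction of the right outflow tract some carriers were higher and some lower than in sham RVs, and their share of changed genes was close to that of the whole array. A gene passed when limma's p, adjusted over all 19938 genes by Benjamini-Hochberg, was under 0.05. At 1 week 7 carriers rose and 1 fell relative to sham RV, or 17.4% of the family, beside 18.4% of all genes (9.57% higher, 8.86% lower). At 3 weeks 3 rose and 0 fell, or 6.52%, beside 5.76% of all genes (3.22% higher, 2.54% lower). At 6 weeks 3 rose and 0 fell, again 6.52%, beside 9.25% of all genes (5.52% higher, 3.73% lower). For the mean of the 3 times 8 rose and 4 fell, or 26.1%, beside 24.8% of all genes (12.2% higher, 12.6% lower). All 6 PAC arrays lay above both sham RV arrays for 9 carriers and below them for 10, beside 16.8% and 21.8% of all genes. The median change of the carriers was -0.04 at 1 week, -0.03 at 3 weeks, -0.02 at 6 weeks and -0.04 for the mean, beside -0.05 over all genes in each comparison. No carrier changed by 2-fold or more among those that passed. These 4 comparisons share the 2 sham RV arrays. Without sham RV array 2, 0 carriers passed in any of them, beside 1.14%, 0.015%, 0.497% and 1.48% of all genes at 1, 3 and 6 weeks and for the mean. Without sham RV array 1, 3 passed at 1 week, 0 at 3 weeks, 1 at 6 weeks and 4 for the mean, beside 5.47%, 0.256%, 2.64% and 7.62% of all genes.

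**Figure D2:**
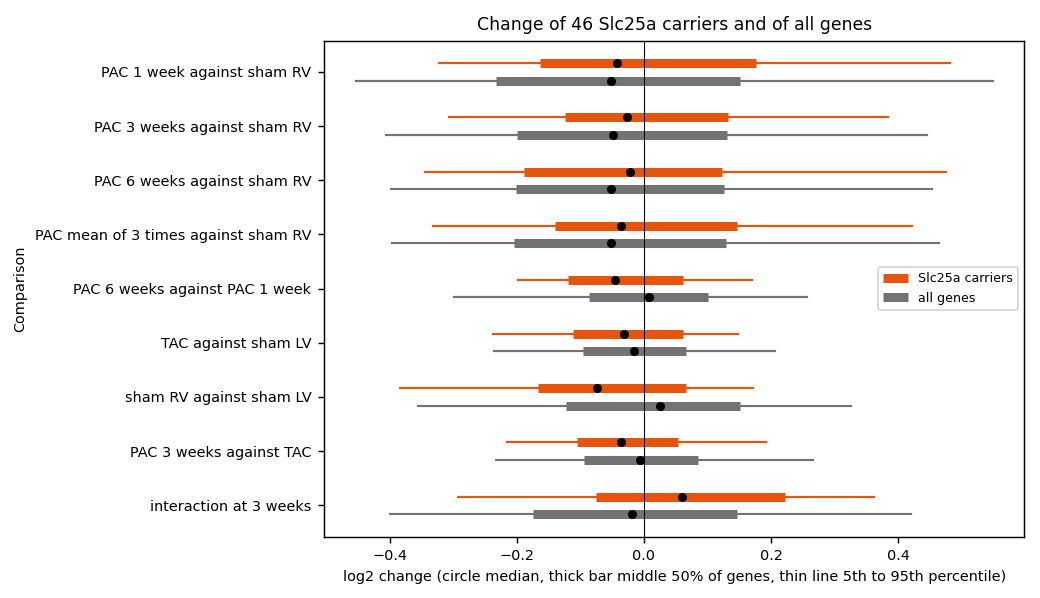
Log2 change (horizontal axis) in each of the 9 comparisons (vertical axis), for the 46 Slc25a carriers in orange and for all 19938 genes in grey. Circles are medians, thick bars the middle 50% of genes and thin lines the 5th to 95th percentile. In the comparison of PAC at 1 week with sham RV the carriers' median is -0.04 and that of all genes -0.05.

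**Figure D3:**
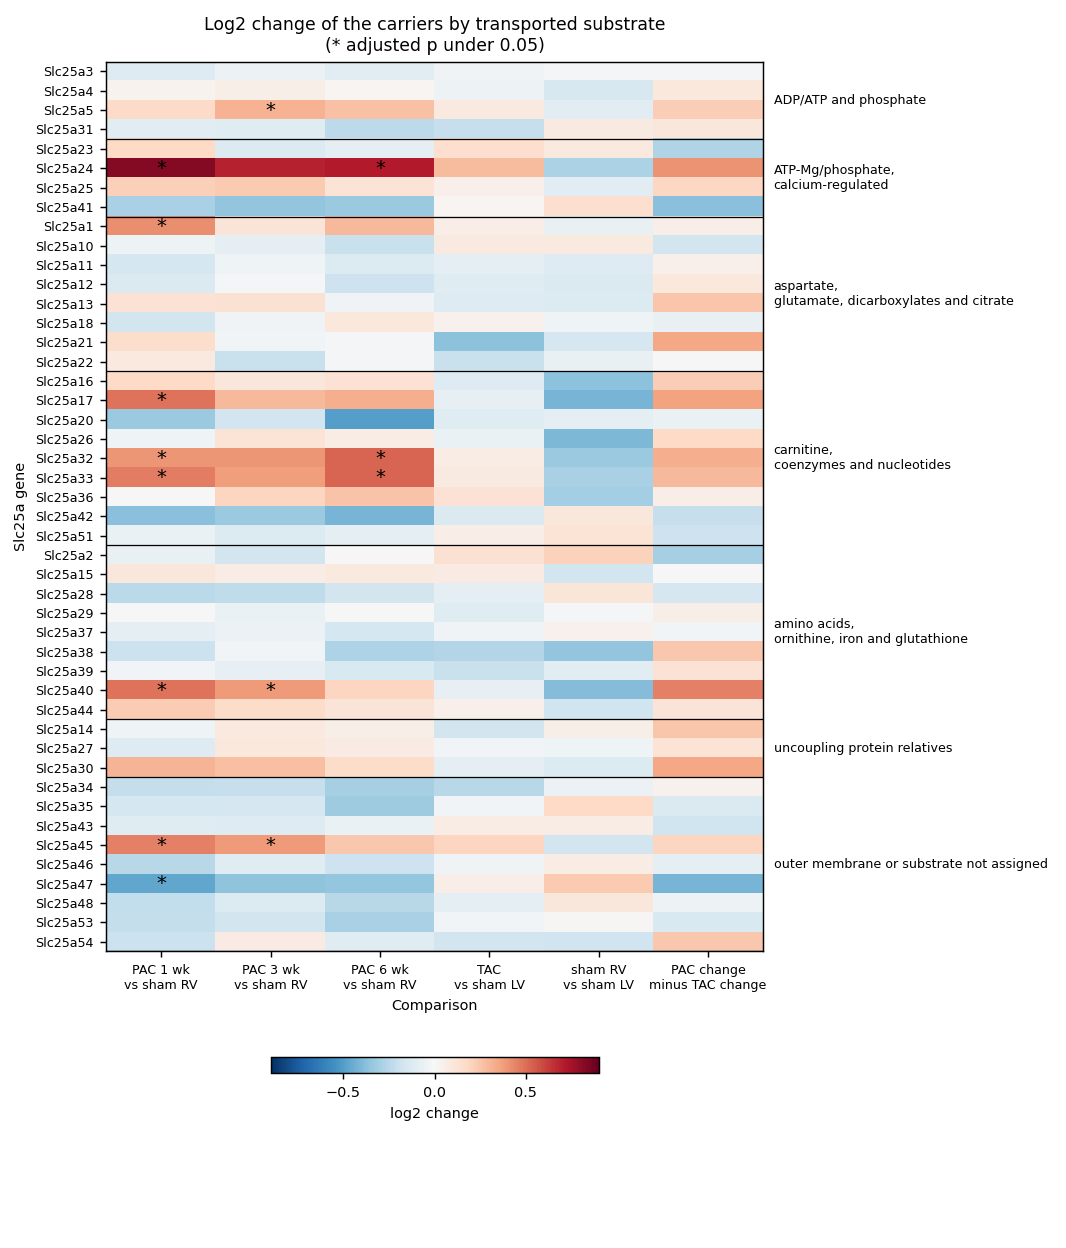
Log2 change of each carrier (rows, grouped by transported substrate) in 6 comparisons (columns). Red is higher and blue lower in the group named first, and in the last column red means that the PAC change exceeded the TAC change. Stars mark an adjusted p under 0.05. Slc25a24 has the strongest red, at 0.82, 0.69 and 0.71 for PAC at 1, 3 and 6 weeks, and no star stands in the 3 columns to the right.

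Of the 4 calcium-regulated or related ATP-Mg/phosphate carriers, which adjust the pool of adenine nucleotides in the matrix, 1 rose, 1 fell and 2 did not pass for the mean of the 3 PAC times. Beside this count and those of the role groups below, 12.2% of all genes rose and 12.6% fell for that mean. Slc25a24 had log2 signals of 8.14 and 8.54 at 1 week, 8.07 and 8.33 at 3 weeks and 8.06 and 8.39 at 6 weeks of PAC, against 7.61 and 7.41 in sham RVs. All 6 PAC arrays lay above both sham RV arrays. Its change was 0.82 ± 0.18 at 1 week (SE, n = 2 arrays per group, limma adjusted p = 0.0186), or 1.77-fold. At 3 weeks the difference was 0.69 ± 0.18 with an adjusted p of 0.0517, which did not pass, and at 6 weeks the change was 0.71 ± 0.18 (limma adjusted p = 0.039). Slc25a41, a short relative that lacks the calcium-binding domain, had dim signals of 5.50 and 5.37, 5.45 and 5.30, and 5.57 and 5.22 at 1, 3 and 6 weeks of PAC, against 5.78 and 5.68 in sham RVs. It lay below the median of unlisted probe sets on all 6 PAC arrays and fell by 0.33 for the mean of the 3 times (limma adjusted p = 0.0327). With cyclic loess scaling of the arrays the difference was -0.18 and did not pass (adjusted p = 0.151), and it kept its call in 11 of the 18 alternatives in which it was tested. Slc25a23 and Slc25a25, the other calcium-regulated members, differed by -0.01 and 0.19 for the mean and did not pass.

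**Figure D4:**
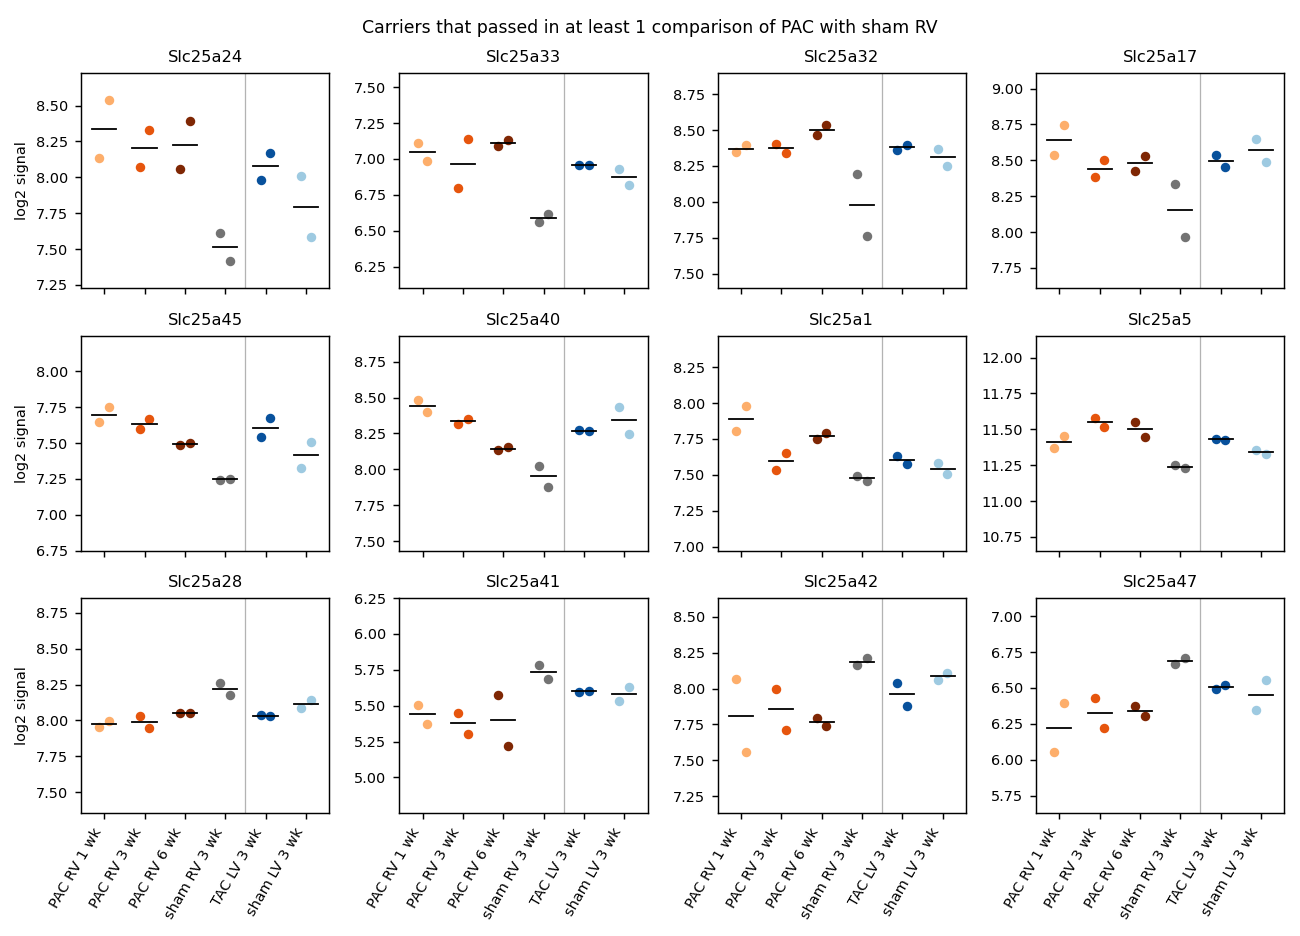
Log2 signal (vertical axis, the same span of 1.5 in each panel) of the 12 carriers that passed in at least 1 comparison of PAC with sham RV, by group (horizontal axis). Points are arrays and bars are means of 2 arrays, with RVs left of the grey line and LVs right of it. The PAC arrays lie above both sham RV arrays for the 8 carriers in the top 2 rows and below them for the 4 in the bottom row.

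Of the 9 measured carriers of carnitine, coenzymes and nucleotides, 3 rose and 1 fell for the mean of the 3 times, beside 12.2% and 12.6% of all genes. Slc25a33, which imports pyrimidine nucleotides into the matrix, had log2 signals of 7.11 and 6.98 at 1 week, 6.80 and 7.14 at 3 weeks and 7.09 and 7.13 at 6 weeks of PAC, against 6.56 and 6.62 in sham RVs. The groups did not overlap, and the change was 0.46 ± 0.11 at 1 week (limma adjusted p = 0.0235) and 0.52 ± 0.11 at 6 weeks (adjusted p = 0.0234, n = 2 arrays per group). At 3 weeks the difference of 0.38 had an adjusted p of 0.0657. Slc25a36, the other pyrimidine nucleotide carrier, differed by -0.0021, 0.19 and 0.26 at 1, 3 and 6 weeks and did not pass at any. A second probe set for Slc25a36, with a mean signal of 9.70 beside 9.77, gave 0.0029, 0.11 and 0.14.

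Slc25a32, known as a carrier of folate and of the flavin coenzyme FAD, had 8.35 and 8.40, 8.40 and 8.34, and 8.47 and 8.53 at 1, 3 and 6 weeks of PAC, against 8.19 and 7.76 in sham RVs. The PAC arrays were close together, and the 2 sham RV arrays differed by more than all 6 PAC arrays did. The change was 0.40 ± 0.12 at 1 week (limma adjusted p = 0.0494) and 0.52 ± 0.12 at 6 weeks (adjusted p = 0.0305). Slc25a17, the coenzyme carrier of peroxisomes and so a family member outside mitochondria, had 8.54 and 8.75, 8.39 and 8.50, and 8.43 and 8.53 at 1, 3 and 6 weeks of PAC, against 8.34 and 7.97 in sham RVs. It rose at 1 week by 0.49 ± 0.13 (limma adjusted p = 0.0295). At 3 and 6 weeks its differences of 0.29 and 0.33 did not pass. For the mean, the changes were 0.44 for Slc25a32 and 0.37 for Slc25a17. Without sham RV array 2 the mean differences were 0.22 and 0.18, that of Slc25a32 was 0.18 at 1 week and 0.31 at 6 weeks, that of Slc25a17 was 0.31 at 1 week, and none of these passed. Slc25a32 at 1 week kept its call in 4 of 19 alternatives.

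Slc25a42, which imports coenzyme A, had 8.07 and 7.55, 7.996 and 7.71, and 7.79 and 7.74 at 1, 3 and 6 weeks of PAC, against 8.16 and 8.21 in sham RVs. All PAC arrays lay below both sham RV arrays, and the change for the mean was -0.38 ± 0.12 (limma adjusted p = 0.0483), with no time passing by itself. Without the 3 arrays that most exceeded the other array of their group in atrial marker signal, its difference for the mean was -0.24 and did not pass (adjusted p = 0.0847). Slc25a20, which brings acylcarnitines into the matrix for fatty acid oxidation, had 11.61 and 11.10, 11.55 and 11.48, and 11.36 and 11.03 at 1, 3 and 6 weeks of PAC, against 11.84 and 11.54 in sham RVs. The arrays at 6 weeks lay below both sham RV arrays, while those at 1 and 3 weeks overlapped with them. The differences were -0.33 ± 0.18, -0.17 ± 0.18 and -0.50 ± 0.18, and none passed (limma adjusted p of 0.192, 0.528 and 0.0952). The difference at 1 week rested on which PAC array was kept: it was -0.59 without PAC array 1 at 1 week (adjusted p = 0.0374) and -0.07 without array 2 (adjusted p = 0.823). Leaving out either PAC array at 1 week brought the difference at 6 weeks past the threshold (adjusted p = 0.0464), and leaving out array 1 did so for the mean, at -0.42 (adjusted p = 0.0276). Of the remaining carriers in this role group, Slc25a16 (coenzyme A), Slc25a26 (S-adenosylmethionine) and Slc25a51 (NAD) did not pass at any time.

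Among the ADP/ATP and phosphate carriers, which serve the ATP synthase directly, 1 of 4 passed. Slc25a5, the ADP/ATP carrier of many tissues and of proliferating cells, had 11.37 and 11.46, 11.58 and 11.52, and 11.55 and 11.45 at 1, 3 and 6 weeks of PAC, against 11.25 and 11.23 in sham RVs. All 6 PAC arrays lay above the sham RV arrays. Its change was 0.31 ± 0.08 at 3 weeks (limma adjusted p = 0.0484) and 0.25 ± 0.07 for the mean (adjusted p = 0.0233), and it did not pass at 1 week (0.18, adjusted p = 0.133) or 6 weeks (0.26, adjusted p = 0.064). At 3 weeks its call was kept in 5 of 19 alternatives. The other 2 probe sets for Slc25a5 gave 0.26 and 0.27 for the mean. Slc25a4 had 13.70 and 13.61, 13.65 and 13.70, and 13.69 and 13.60 at 1, 3 and 6 weeks of PAC, against 13.66 and 13.59 in sham RVs. The groups overlapped at every time, with differences of 0.03, 0.05 and 0.02 and a standard error of 0.08. Slc25a3 differed by -0.11, -0.05 and -0.10 at 1, 3 and 6 weeks, and Slc25a31 by -0.15 for the mean. Neither passed.

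Of the 8 carriers of aspartate, glutamate, dicarboxylates and citrate, 1 rose. Slc25a1 exports citrate, the source of cytosolic acetyl-CoA for lipid synthesis. It had 7.80 and 7.98, 7.53 and 7.65, and 7.75 and 7.79 at 1, 3 and 6 weeks of PAC, against 7.50 and 7.46 in sham RVs. Both arrays at 1 week were above all others, and the change there was 0.41 ± 0.09 (limma adjusted p = 0.017). The differences at 3 and 6 weeks were 0.12 and 0.29 and did not pass, while the mean of the 3 times did, at 0.27 ± 0.07 (limma adjusted p = 0.0243). The carriers of the malate-aspartate shuttle did not pass at any time. Slc25a11 differed by -0.16, -0.04 and -0.12 at 1, 3 and 6 weeks, Slc25a12 by -0.13, -0.01 and -0.19, and Slc25a13, the other aspartate-glutamate carrier, by 0.13, 0.14 and -0.03. The dicarboxylate carrier Slc25a10, the glutamate carriers Slc25a18 and Slc25a22 and the oxodicarboxylate carrier Slc25a21 differed by -0.11 to 0.04 for the mean.

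Of the 9 carriers of amino acids, ornithine, iron and glutathione, 1 rose and 1 fell for the mean, beside 12.2% and 12.6% of all genes. Slc25a40, which with Slc25a39 imports glutathione, had 8.49 and 8.40, 8.32 and 8.35, and 8.14 and 8.15 at 1, 3 and 6 weeks of PAC, against 8.03 and 7.88 in sham RVs. All 6 PAC arrays were above the sham RV arrays, highest at 1 week. Its change was 0.49 ± 0.09 at 1 week (limma adjusted p = 0.0121) and 0.38 ± 0.09 at 3 weeks (adjusted p = 0.0418), and the difference at 6 weeks, 0.19, did not pass (adjusted p = 0.183). Its call at 3 weeks was kept in 8 of 19 alternatives. A second, dimmer probe set for Slc25a40 gave 0.63, 0.50 and 0.35 at the 3 times. Slc25a39 differed by -0.03, -0.07 and -0.14 and did not pass.

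Slc25a28, the iron carrier mitoferrin-2, had 7.96 and 7.997, 8.03 and 7.95, and 8.05 and 8.05 at 1, 3 and 6 weeks of PAC, against 8.26 and 8.18 in sham RVs. It fell by 0.21 for the mean (limma adjusted p = 0.036) and did not pass at a single time. Slc25a37 differed by -0.10 for the mean and Slc25a38, which carries glycine for heme synthesis, by -0.16. Neither passed, nor did the ornithine carriers Slc25a15 and Slc25a2, the basic amino acid carrier Slc25a29 or the branched-chain amino acid carrier Slc25a44.

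In the remaining role groups 1 carrier rose and 1 fell. Slc25a45 had 7.64 and 7.75, 7.60 and 7.67, and 7.48 and 7.50 at 1, 3 and 6 weeks of PAC, against 7.25 and 7.25 in sham RVs. Its change was 0.45 ± 0.09 at 1 week (limma adjusted p = 0.0153) and 0.38 ± 0.09 at 3 weeks (adjusted p = 0.0416), and the difference at 6 weeks, 0.24, did not pass. The call at 3 weeks was kept in 8 of 19 alternatives. Slc25a47, a carrier found mainly in liver, had 6.05 and 6.39, 6.43 and 6.22, and 6.38 and 6.30 at 1, 3 and 6 weeks of PAC, against 6.67 and 6.71 in sham RVs. In the main fit it was the only carrier to pass downward at a single time and fell by 0.46 ± 0.12 at 1 week, or 1.38-fold (limma adjusted p = 0.0318). With cyclic loess scaling Slc25a28 and Slc25a46 passed downward at 1 week, and Slc25a47 passed neither there nor for the mean. It kept its call at 1 week in 13 of the 18 alternatives in which it was tested. Without PAC array 1 at 1 week the difference was -0.29 and did not pass (adjusted p = 0.112). Its neighbour among protein-coding genes on chromosome 12, Slc25a29, differed by -0.00083 there and did not pass. On chromosome 3 Slc25a24 and its neighbour Slc25a54 stood at 0.74 and -0.08 for the mean. The relatives of uncoupling proteins, Slc25a14, Slc25a27 and Slc25a30, did not pass, although Slc25a30 lay above both sham RV arrays on all 6 PAC arrays (mean difference 0.25, limma adjusted p = 0.091). Slc25a46 of the outer membrane differed by -0.18 for the mean with all 6 PAC arrays below the sham RV arrays, and did not pass. Slc25a34, Slc25a35, Slc25a43, Slc25a48, Slc25a53 and Slc25a54 did not pass either.

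Each of the 12 carriers that passed for the mean of the 3 times had its extreme group in the sham RVs. The sham RV mean was the lowest of the 6 group means for all 8 that rose and the highest for all 4 that fell, LVs included. Among all genes that passed, this held for 94.7% of those that rose and for 96% of those that fell. These genes were picked by their difference from sham RV, which itself favours a sham RV mean at the extreme. The pattern is therefore no finding about the carriers. Over all measured carriers, passing or not, the sham RV mean was lowest for 30.4% and highest for 28.3%. Over all genes these shares were 25.7% and 37.6%.

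Promoter sequences are shown for 5 carriers that differ in their response: Slc25a24 with the widest response, Slc25a33 and Slc25a1 which rose, Slc25a47 which fell, and Slc25a20 as the fatty acid carrier. They are the 250 bases before an annotated start, in the 5′ to 3′ direction of the gene, from RefSeq on GRCm38.p6. The window of Slc25a47 lies inside the annotated gene, which spans 108849833 to 108856815 on chromosome 12, and so precedes an internal start. Windows were found for 36 of the 46 carriers, 46 windows in all because some genes have several starts. Each was searched on both strands for 4 sequences bound by regulators of mitochondrial genes or of growth: TCAAGGTCA (estrogen-related receptors), the palindrome of NRF1, CCGGAAGT (the ETS factor GABPA) and CACGTG (the E-box of MYC and its relatives). No carrier window held TCAAGGTCA or the NRF1 palindrome, which 0.387% and 0.782% of all 32851 windows held. CCGGAAGT was in 1 carrier window, that of Slc25a20, or 2.17%, against 2.88% of all windows. CACGTG was in 8 carrier windows of 7 genes, or 17.4% of windows, against 6.02% of all windows. The 7 genes were Slc25a1, Slc25a13, Slc25a14, Slc25a15, Slc25a31, Slc25a33 and Slc25a36. Of these, Slc25a1 and Slc25a33 passed for the mean of the 3 times, beside 26.1% of all carriers and 24.8% of all genes. A link between the E-box and the response was not tested. The median GC content was 57.4% in carrier windows and 52.4% in all, and its part in the E-box share was not tested. Capitals mark the matches, and no motif overlapped another. The windows are chr3:109122899-109123148 on the plus strand for Slc25a24, chr4:149774268-149774517 on the minus strand for Slc25a33, chr16:17928220-17928469 on the minus strand for Slc25a1, chr12:108850879-108851128 on the plus strand for Slc25a47 and chr9:108661886-108662135 on the plus strand for Slc25a20.
Slc25a24 promoter: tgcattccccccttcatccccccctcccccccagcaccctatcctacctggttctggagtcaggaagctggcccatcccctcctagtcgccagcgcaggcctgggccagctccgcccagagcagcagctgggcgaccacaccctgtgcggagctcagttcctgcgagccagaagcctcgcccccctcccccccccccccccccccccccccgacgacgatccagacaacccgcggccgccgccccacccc
Slc25a33 promoter: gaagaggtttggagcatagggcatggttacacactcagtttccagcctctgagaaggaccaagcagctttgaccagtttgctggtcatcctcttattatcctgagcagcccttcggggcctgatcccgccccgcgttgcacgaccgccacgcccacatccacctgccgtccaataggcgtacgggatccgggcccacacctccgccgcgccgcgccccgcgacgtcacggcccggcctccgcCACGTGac
Slc25a1 promoter: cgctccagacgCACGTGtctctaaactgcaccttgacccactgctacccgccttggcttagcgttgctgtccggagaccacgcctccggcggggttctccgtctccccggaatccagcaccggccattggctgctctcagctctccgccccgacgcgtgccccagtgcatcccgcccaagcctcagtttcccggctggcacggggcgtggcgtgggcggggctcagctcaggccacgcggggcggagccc
Slc25a47 promoter: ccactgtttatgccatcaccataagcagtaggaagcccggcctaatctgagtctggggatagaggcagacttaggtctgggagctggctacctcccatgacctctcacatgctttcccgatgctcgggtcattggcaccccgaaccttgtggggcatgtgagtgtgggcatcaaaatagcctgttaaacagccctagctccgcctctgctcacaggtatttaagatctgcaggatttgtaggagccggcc
Slc25a20 promoter: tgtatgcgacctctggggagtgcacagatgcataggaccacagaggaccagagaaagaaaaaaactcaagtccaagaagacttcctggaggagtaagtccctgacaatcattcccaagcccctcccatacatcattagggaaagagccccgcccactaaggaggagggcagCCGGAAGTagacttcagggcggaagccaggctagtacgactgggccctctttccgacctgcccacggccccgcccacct

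Genes that work beside the carriers were taken from lists of partners and regulators. Their calls rest on the same sham RV arrays as the carrier calls, whose dependence on these arrays is given above. Whether the calls of the listed genes hold with either sham RV array left out was not tested. Of 15 measured subunits of the ATP synthase, which uses the ADP and phosphate that the carriers bring in, 0 rose and 7 fell for the mean of the 3 PAC times (median -0.20, beside -0.05 over all genes). Of all genes 12.6% were lower in that comparison. Atp5e had 10.24 and 10.14, 10.15 and 9.92, and 10.08 and 9.94 at 1, 3 and 6 weeks of PAC, against 10.74 and 10.77 in sham RVs. It fell at each time, by 0.57, 0.72 and 0.75, and it was 0.60 higher in sham RVs than in sham LVs, where it also passed. Atp5g2, Atp5o and Atp5j2 fell by 0.36, 0.34 and 0.32 for the mean. The 12 measured parts of the TIM22 and TOM machinery, which inserts carriers into the inner membrane, held 0 that rose and 0 that fell. Their median was 0.03. Of 5 listed family members that carry other names 4 were measured, and these, Ucp1, Ucp3, Mtch1 and Mtch2, did not pass. Ucp1, with a mean of 4.84, lay below the median of unlisted probe sets.

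Of the 4 measured partners of Slc25a20 in the carnitine shuttle, 0 rose and 2 fell for the mean. Beside this count and the lists that follow, 12.2% of all genes rose and 12.6% fell for the mean. These calls too were not tested with either sham RV array left out. Crat, carnitine acetyltransferase, had 11.46 and 11.08, 11.41 and 11.23, and 11.40 and 11.19 at 1, 3 and 6 weeks of PAC, against 11.71 and 11.81 in sham RVs, and fell by 0.47 for the mean (limma adjusted p = 0.0154). Cpt2, which releases acyl-CoA in the matrix, fell by 0.44 for the mean (adjusted p = 0.0253), and Cpt1a and Slc22a5 did not pass. Among the 4 enzymes of the malate-aspartate shuttle Got2 fell by 0.20 and Got1, Mdh1 and Mdh2 did not pass. Of 15 other transport proteins of the mitochondrial membranes, Sfxn3 rose by 0.55 and Sfxn5 fell by 0.53 for the mean, each also passing at every time. Both belong to the sideroflexins, a separate family of inner membrane carriers. In the list of 11 heme and iron-sulfur genes, Alad fell by 0.53 and Iscu by 0.25 for the mean, and Cpox rose by 0.37 at 6 weeks. Of 14 regulators, Esrra, an orphan receptor that drives genes of oxidative metabolism, fell by 0.35 for the mean (adjusted p = 0.0174), and Myc rose by 0.69 (adjusted p = 0.0212) and by 0.94 at 1 week.

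Markers of cell types also differed between PAC and sham RV arrays. The marker calls rest on the same sham RV arrays as the carrier calls, and whether they hold with either array left out was not tested. The mean log2 signal over 8 cardiomyocyte markers was 13.40 to 13.49 on PAC arrays, against 13.55 on both sham RV arrays. Of these, Tnni3 and Ryr2 fell for the mean of the 3 times. Over 6 fibroblast markers it was 10.01 to 10.92 on PAC arrays, against 9.53 to 9.54 in sham RVs, and 4 of the 6 rose. Over 6 macrophage and myeloid markers it was 7.50 to 8.74, against 7.37 to 7.38, and over 6 cell cycle genes 6.09 to 8.06, against 5.66 to 5.80, with PAC array 2 at 1 week the highest in both. For the mean of the 3 times 2 of the 6 macrophage and myeloid markers and 5 of the 6 cell cycle genes rose. Over 5 atrial muscle markers the range was 7.53 to 10.10 on PAC arrays, against 6.03 to 6.67 in sham RVs, and 4 of the 5 rose. Over 6 endothelial markers it was 10.03 to 10.31 on PAC arrays, against 9.80 to 9.86 in sham RVs, and all 6 rose. Over 6 smooth muscle and pericyte markers it was 9.36 to 9.76, against 9.23 to 9.43, and 3 rose. Over 4 lymphocyte markers it was 4.91 to 5.20, against 5.32 to 5.35, and 2 fell. These lymphocyte means lay below the median of unlisted probe sets, 5.65 to 5.79, and so did 2 of the 4 genes on average. Of 5 white fat markers 1 rose and 2 fell, of 4 brown fat markers 2 rose, and of 3 erythroid markers 0 passed. In these 3 lists 2, 2 and 1 genes lay below that median on average. Beside these counts, 12.2% of all genes rose and 12.6% fell for the mean of the 3 times. In whole tissue fewer cells of a type and less RNA per cell cannot be told apart, and the part of these markers in the carriers' changes was not tested. When the 3 arrays richest in atrial markers relative to the other array of their group were left out, 1, 0, 4 and 5 carriers passed at 1, 3 and 6 weeks and for the mean, beside 0.883%, 0.0201%, 10.3% and 10.6% of all genes. Slc25a24 was then 0.62 higher at 1 week, where it did not pass, and 0.63 higher for the mean, where it did.

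Between 6 weeks and 1 week of PAC 0 carriers passed, beside 0.0953% of all genes, and 3 carriers, or 6.52%, had an unadjusted p under 0.05, beside 9.75% of all genes. The smallest p values were those of Slc25a40, with 8.14 and 8.15 at 6 weeks against 8.49 and 8.40 at 1 week (difference -0.30 ± 0.09, limma adjusted p = 0.294), and of Slc25a36, with 9.77 and 9.90 against 9.61 and 9.53 (difference 0.26 ± 0.08, adjusted p = 0.314). The arrays of the 2 times did not overlap for either gene. The second probe set for Slc25a36 gave a smaller difference, 0.14. Across all genes 35.6% had arrays that did not overlap, and 16 of the 46 carriers did. The median over the carriers was -0.04, beside 0.01 over all genes.

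Obstruction of the left outflow tract gave no carrier that passed, as was so for all genes (0%). With an unadjusted p under 0.05 there were 2 carriers, or 4.35%, beside 4.83% of all genes. Slc25a21 had 3.84 and 4.08 in TAC LVs, against 4.49 and 4.17 in sham LVs, and lies below the median of unlisted probe sets (difference -0.37 ± 0.13, limma adjusted p = 0.985). Slc25a39 had 9.81 and 9.82, against 9.98 and 10.06 (difference -0.20 ± 0.08, adjusted p = 0.985). The carriers of ADP, ATP and phosphate did not pass. Slc25a4 had 13.74 and 13.71 in TAC LVs, against 13.76 and 13.77 in sham LVs, and Slc25a3 had 12.11 and 12.10, against 12.19 and 12.08. The differences were -0.05 for Slc25a4, -0.03 for Slc25a3, 0.09 for Slc25a5, -0.08 for Slc25a11, -0.11 for Slc25a12, -0.12 for Slc25a13 and -0.11 for Slc25a20. Slc25a24 had 7.98 and 8.17 in TAC LVs, against 8.01 and 7.58 in sham LVs, and these overlapped.

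Between sham RVs and sham LVs 0 carriers passed, beside 0.411% of all genes. With an unadjusted p under 0.05 there were 9 carriers, or 19.6%, beside 20.7% of all genes. The median over the carriers was -0.07 and over all genes 0.02. Both sham RV arrays lay below both sham LV arrays for 20 of the 46 carriers, beside 26.1% of all genes, and above them for 10, beside 29.3% of all genes. The coenzyme and nucleotide carriers had the lowest median of the role groups, -0.31 over 9 genes. Slc25a40 had 8.03 and 7.88 in sham RVs, against 8.43 and 8.25 in sham LVs (difference -0.39 ± 0.09, limma adjusted p = 0.0723). Slc25a36 had 9.56 and 9.59, against 9.84 and 9.92 (difference -0.31 ± 0.08, adjusted p = 0.0961), and its second probe set gave -0.19. Slc25a16, Slc25a17 and Slc25a26 differed by -0.37, -0.42 and -0.40. Slc25a16 had 8.56 and 8.32 in sham RVs, against 8.84 and 8.78 in sham LVs. Slc25a17 had 8.34 and 7.97, against 8.65 and 8.49, and Slc25a26 had 8.81 and 8.40, against 8.98 and 9.04. In each of them sham RV array 2 was the lower. With dim genes left out, or with a trended and robust spread, Slc25a16, Slc25a36 and Slc25a40 were lower in sham RV and passed, beside 8.74% and 3.63% of all genes tested. Slc25a3, Slc25a4, Slc25a5, Slc25a11, Slc25a12, Slc25a13 and Slc25a20 differed by -0.02, -0.14, -0.10, -0.12, -0.13, -0.12 and -0.08. The sham RV arrays are also those that PAC was compared with.

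Between the loaded ventricles, PAC RVs and TAC LVs at 3 weeks, 0 carriers passed, beside 0.0201% of all genes, and 2, or 4.35%, had an unadjusted p under 0.05, beside 7.37% of all genes. The smallest p values were those of Slc25a36, with 9.79 and 9.74 in PAC RVs against 10.03 and 9.99 in TAC LVs (difference -0.24 ± 0.08, limma adjusted p = 0.589), and of Slc25a14, with 6.15 and 6.41 against 5.90 and 6.05 (difference 0.31 ± 0.12, adjusted p = 0.642). The second probe set for Slc25a36 gave -0.11. The test of whether PAC and TAC at 3 weeks changed a gene differently, each against the sham of its own chamber, gave 0 carriers and 0 of all genes, with 4 carriers, or 8.7%, at an unadjusted p under 0.05, beside 11.9% of all genes. Slc25a40 had the smallest p among carriers, with a PAC change of 0.38, a TAC difference of -0.07 and a difference between them of 0.45 ± 0.13 (limma adjusted p = 0.354). Slc25a47 followed with -0.36 in PAC, 0.06 in TAC and -0.42 ± 0.18 between them (adjusted p = 0.404). For Slc25a24 the values were 0.69, 0.28 and 0.41, and the difference did not pass (adjusted p = 0.52). No carrier was shown to respond differently in the chambers.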

How the data were processed

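Ventricular RNA of 12 Affymetrix whole-transcript arrays was compared, 2 per group. The deposited log2 values were made by the authors with RMA in Affymetrix Power Tools, per the submitters' processing notes; neither a version nor a build was found (not given in the sources used here). RMA adjusts background, aligns the arrays' distributions and summarises probes on the log2 scale, which compresses dim signals. The deposited log2 array medians ran from 6.32 to 6.40. Of 35556 probe sets 21789 had 1 listed gene, 1621 several and 12146 none. Gene symbols come from GEO's platform annotation, updated through the gene ID.

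For all 19938 genes, limma 3.58.1 in R 4.3.3 fitted group means to the 12 arrays together (6 residual and 4.60 prior degrees of freedom), with Benjamini-Hochberg adjustment in each of 9 comparisons. It was tested on simulated data. The number of arrays limits the precision, and exact permutation of 2 against 2 arrays stops at p = 0.33. Every carrier that passed is named, also where the naming rule asked for only the 8 with the largest change. Beyond these, 7 energy carriers are given in each comparison with sham, the 2 smallest p values where fewer than 2 passed, the 5 highest and 5 lowest by level, and up to 4 genes per other list. Members and lists were chosen with earlier results of these data known. Other scalings, filters, spread models and left-out arrays were tried.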

Additional observations from a re-analysis of the deposited data

How the results depend on the processing

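All 26 combinations of a carrier and a comparison that passed kept their sign in each alternative in which the gene was tested, which was 19 for 23 of them and 18 for Slc25a47 at 1 week and for the mean and Slc25a41 for the mean, which drop out with the dim genes, but 0 of the 26 kept their call without sham RV array 2. Leaving out 1 array at a time gave 0 to 11 carriers passing at 1 week of PAC, 0 to 4 at 3 weeks, 0 to 6 at 6 weeks and 0 to 16 for the mean of the 3 times, beside 1.14% to 22.9%, 0.015% to 10.4%, 0.015% to 13.3% and 1.48% to 31.3% of all genes. It gave 0 in the other comparisons. Sham RV array 2 took the count to 0 in all 4, PAC array 2 at 1 week took it to 2 at 1 week, and PAC array 2 at 3 and at 6 weeks took it to 0 at its own time. Leaving out any 1 of the 4 LV arrays also took the 3-week count to 0, through the shared spread. A group left with 1 array is assumed to vary as the others do. A fit to only the arrays compared gave 0, 1, 2 and 6 carriers for 1, 3 and 6 weeks and the mean, beside 0.446%, 5.47%, 5.12% and 14.6% of all genes. Cyclic loess scaling gave 8, 0, 2 and 10, beside 10.7%, 2.79%, 6.28% and 15.5%. With genes of low mean signal left out, 35 carriers were tested and 9, 7, 7 and 12 passed, and 3 passed between sham RV and sham LV, beside 27%, 15.9%, 24.4%, 37% and 8.74% of the genes tested. A trended and robust prior gave 10, 4, 5 and 13, and 3 between sham RV and sham LV, beside 19.1%, 8.27%, 11.7%, 25.9% and 3.63%. A further fit, chosen after the data were seen, left out the 3 arrays that most exceeded the other array of their group in atrial marker signal. Its counts are given with the markers above. The PAC arrays kept, at 7.53 to 8.72 in mean atrial signal, still lay above the sham RV arrays, at 6.67 and 6.03. Whether replicate numbers pair arrays of different groups was not settled. The correlation of deviations between groups ran from -0.24 to 0.37 over 15 pairs of groups, with 5 pairs over 0.1. A replicate block gave 7, 2, 3 and 12 carriers, beside 18.9%, 6.96%, 9.74% and 25.3% of all genes. The 7 carriers below the median of unlisted probe sets have the least signal over background.

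Sign changes occurred for 10 of 43 named values that had not passed, all when 1 or more arrays were left out. One of them, Slc25a11 at 1 week, passed at -0.34 without PAC array 1 at 1 week (limma adjusted p = 0.0479). At 1 week of PAC, over the arrays left out in turn, Slc25a4 ranged from -0.012 to 0.079, Slc25a11 from -0.34 to 0.016, Slc25a12 from -0.27 to 0.0074 and Slc25a13 from -0.0036 to 0.26. At 3 weeks Slc25a11 ranged from -0.13 to 0.060 and Slc25a12 from -0.063 to 0.047. At 6 weeks Slc25a4 ranged from -0.026 to 0.063 and Slc25a13 from -0.13 to 0.074. In TAC Slc25a3 ranged from -0.085 to 0.025 and Slc25a20 from -0.23 to 0.0074. Without the 3 arrays left out by atrial signal Slc25a11 was 0.016 and Slc25a12 0.0074 at 1 week, and Slc25a20 0.0074 in TAC. The cause of these shifts was not tested.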
